A study of Homo sapiens with 6 samples.

Results

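Receptor tyrosine kinases outside the ERBB and EPH families were followed on 6 arrays of a human breast cancer line. The set holds 35 genes named by a fixed list, and 34 of them have a probe set of their own among the 19775 genes measured. Each gene was read by its brightest probe set over all 6 arrays. DDR1 is the exception, because all 4 of its probe sets are annotated to MIR4640 as well, so they were read by identifier only. The cells are the 1833 subline of MDA-MB-231, a triple-negative human breast cancer line, and 1833 is known for growing in bone. One group of 3 arrays is labelled S153E-RKIP, for cells carrying a lentiviral vector that expresses this mutant of the Raf-1 inhibitor RKIP, kept in 0.5 µg/ml puromycin. The other 3 arrays are the control, which carried the vector, and both groups grew with 10% serum. The control labels give no puromycin, so an effect of the drug cannot be told apart from that of the mutant. The labels give no age of culture or time after transduction, and call the 3 arrays of a group biological replicates without saying whether they came from separate transductions. The p-values thus reflect array-to-array spread within a group, part of which may be technical.

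Receptor tyrosine kinases are single-pass membrane proteins that bind a growth factor outside the cell, pair up and phosphorylate each other inside it. The phosphorylated tails collect adaptors such as GRB2 and SHC1, which lead to RAS, Raf, MEK and ERK, and to PI3 kinase and AKT. RKIP acts below them, at Raf. In breast cancer cells of mesenchymal type AXL and MET are known for roles in migration and invasion.

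The source name of the S153E-RKIP samples mentions an shRNA against HMGA2, whereas their titles and characteristics name S153E-RKIP. PEBP1, which encodes RKIP, had a mean log2 signal of 11.66 on S153E-RKIP arrays and 11.76 on control arrays (limma adjusted p = 0.473). HMGA2 averaged 9.77 on S153E-RKIP arrays and 9.79 on control arrays (adjusted p = 0.882). In both genes the groups overlapped, so neither signal checks the label, and the sources used here do not say whether the PEBP1 probes match the vector's sequence. Every direction below rests on the labels. A list of 25 genes that belong to other tissues, such as ALB, INS and PRL, had mean log2 signals from 3.69 to 7.43 with a median of 5.07. They mark how bright a probe set can be for a gene these cells are not expected to use. The top of that range is 1 gene, SFTPC, and the next brightest was CRYGD at 6.42. The receptors FGFR4 (7.12), MST1R (6.60), TYRO3 (6.56) and RET (6.43) lay between these 2, as did ESR1, so SFTPC alone puts them within the range. All 7 markers of mesenchymal-like breast lines lay above that range, VIM at 14.44 and CD44 at 12.30 among them. The 9 markers of luminal epithelium were divided: KRT18 (13.02), KRT8 (9.89), EPCAM (8.31), GATA3 (8.08) and ERBB2 (7.71) lay above it, and ESR1 (6.65), FOXA1 (4.35), CDH1 (4.18) and PGR (4.04) within it. Signals of different probe sets also depend on the probes, so receptors were not ranked against each other by signal.

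As a set the receptors differed little between the groups. Only MERTK was called among the 34, as lower, at a limma adjusted p under 0.05, which is 2.94% of them against a background of 1.90% of all genes called either way and 1.21% called lower. None was called higher, against 0.688% of all genes. At an unadjusted p under 0.05 there were 2 higher and 5 lower, 20.6% in all, where all genes gave 15.7%. In 7 receptors, 20.6%, the groups did not overlap, and in all genes 20.1%. The median log2 difference, S153E-RKIP minus control, was -0.0016 over the 34 and 0.010 over all genes. The median size of the difference, without its sign, was 0.074 in the receptors and 0.079 in all genes.

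The intervals were narrow. The 95% confidence interval of the difference lay inside a 1.5-fold change in either direction for all 34 receptors, and inside a 1.3-fold change for 27. The farthest bound was that of MERTK, 1.49-fold lower. For receptors with a signal in the range of the other-tissue genes these bounds apply to the signal, since signal over background was not measured. The 34 are covered by 109 probe sets, and none of these passed when each was tested by itself and adjusted over all probe sets. In that test 1.38% of all genes were called by their brightest probe set, so few calls would be looked for among the 109.

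**Figure D1:**
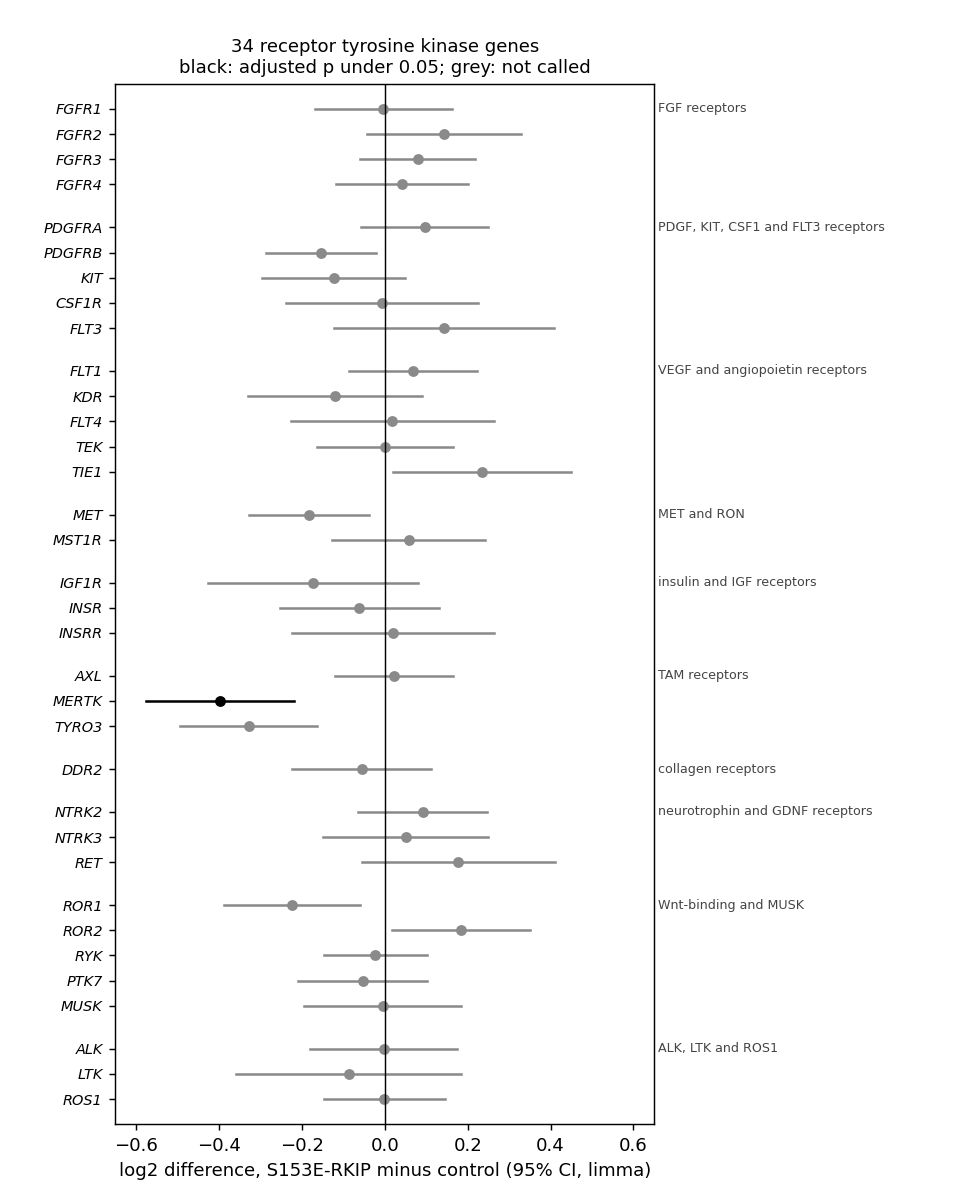
Log2 difference (S153E-RKIP minus control, x axis) with its 95% confidence interval for 34 receptor genes, grouped by family, from 3 arrays a group. MERTK, in black, is the only gene called; TYRO3 is the next farthest below 0, and every interval lies inside a 1.5-fold change.

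The TAM receptors TYRO3, AXL and MERTK bind GAS6, and TYRO3 and MERTK also bind protein S. Both are bridging ligands that attach to phosphatidylserine on dying cells, and MERTK is known for clearing such cells. The 3 genes are shown with the 250 bases before their starts, because they are close relatives that gave different readings. The windows come from RefSeq on GRCh38.p14, plus strand, and lie at chr2:111898357-111898606 for MERTK, chr15:41558962-41559211 for TYRO3 and chr19:41218973-41219222 for AXL. Capitals mark GC boxes, the letters GGGCGG or their reverse complement, the motif known to bind Sp1.
MERTK: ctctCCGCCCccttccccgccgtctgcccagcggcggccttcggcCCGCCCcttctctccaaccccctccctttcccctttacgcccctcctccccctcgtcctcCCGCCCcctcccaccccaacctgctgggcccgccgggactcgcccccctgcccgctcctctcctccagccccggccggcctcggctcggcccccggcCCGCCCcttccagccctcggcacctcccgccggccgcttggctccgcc
TYRO3: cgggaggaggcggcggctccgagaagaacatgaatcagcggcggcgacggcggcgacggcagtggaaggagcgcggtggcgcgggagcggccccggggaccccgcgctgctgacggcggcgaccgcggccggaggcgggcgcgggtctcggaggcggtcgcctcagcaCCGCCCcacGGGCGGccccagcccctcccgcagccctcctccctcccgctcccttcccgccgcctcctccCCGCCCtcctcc
AXL: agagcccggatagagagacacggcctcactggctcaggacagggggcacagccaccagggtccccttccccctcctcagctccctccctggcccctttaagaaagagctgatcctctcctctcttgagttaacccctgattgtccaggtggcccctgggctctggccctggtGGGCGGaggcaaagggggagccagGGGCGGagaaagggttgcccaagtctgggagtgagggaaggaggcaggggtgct
The MERTK window held 4 GC boxes, the TYRO3 window 3 and the AXL window 2. Of all 35116 promoter windows of the same length, 42.6% held at least 1, and of the 57 windows of 32 receptors of the list 54.4%. The number of boxes per window was not compared with other genes. G and C made up 78.8% of the window of MERTK, 80.0% of that of TYRO3 and 64.4% of that of AXL, and the median over all windows was 58.0%. The TYRO3 window also held 1 match to TGANTCA, which 6.57% of all windows held. This pattern is looser than the AP-1 motif, whose centre base is C or G, and the match, tgaatca, has A there. Neither of the other windows had a match to TGANTCA. None of the 3 held TGACGTCA, CACGTG or TCACNCCAC, searched on both strands as the motifs of CREB, of E-box factors and of SREBP. Matches to GC boxes may overlap each other, and all these matches are descriptions of the letters only. For TYRO3 and AXL the table lists 2 starts each, and the one at the gene's first base was taken.

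MERTK (chromosome 2, 111898607 to 112029561 on GRCh38.p14) had log2 signals of 7.78, 7.97 and 7.84 on the S153E-RKIP arrays, against 8.37, 8.27 and 8.15 on the control arrays. All 3 S153E-RKIP arrays lay below all 3 control arrays. The log2 difference was -0.40 (95% confidence interval -0.58 to -0.22, SE 0.078, limma adjusted p = 0.0453), or 1.32-fold lower. In size it stood at rank 387 among the 19775 genes. The call rests on all 6 arrays: it was lost when any one of them was left out, with the adjusted p between 0.0797 and 0.191 and the difference between -0.46 and -0.34. It was also lost with the mean of the gene's probe sets (difference -0.23, adjusted p = 0.0811).

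The other probe sets of MERTK differed in the same direction by less. The second, with a mean signal of 7.66, read 7.38, 7.51 and 7.75 on S153E-RKIP arrays and 7.80, 7.84 and 7.66 on control arrays. Its groups overlapped through S153E-RKIP replicate 3, and its difference was -0.22 (adjusted p = 0.392 over all probe sets). The third had a mean of 4.27, among the dim other-tissue signals, and a difference of -0.076.

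TYRO3 (chromosome 15, 41559212 to 41583589) had log2 signals of 6.44, 6.45 and 6.29 in S153E-RKIP, against 6.69, 6.83 and 6.65 in control. The groups did not overlap, and the difference was -0.33 (95% confidence interval -0.49 to -0.16, SE 0.072), 1.26-fold lower, but it did not pass the test (limma adjusted p = 0.0698). Its second probe set, with a mean signal of 5.38, went the other way without overlap. That one read 5.43, 5.43 and 5.41 in S153E-RKIP and 5.36, 5.30 and 5.37 in control (difference 0.078, adjusted p = 0.586 over all probe sets). Both signals lie in the range of the other-tissue genes, the first of them below SFTPC alone.

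AXL (chromosome 19, 41219223 to 41261766) had log2 signals of 12.24, 12.33 and 12.37 in S153E-RKIP and 12.33, 12.32 and 12.22 in control. The groups overlapped, and the difference was 0.022 (95% confidence interval -0.12 to 0.17, adjusted p = 0.893). A second AXL probe set had a difference of -0.16, with S153E-RKIP replicate 1 at 8.88 above and replicates 2 and 3 at 8.58 and 8.59 below the control arrays, which ran from 8.83 to 8.85.

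Both TAM ligands had lower signals in S153E-RKIP without passing the test. GAS6 read 10.09, 10.10 and 10.15 in S153E-RKIP, against 10.31, 10.37 and 10.33 in control, with a difference of -0.23 (SE 0.054, limma adjusted p = 0.0929). Its second probe set had a difference of -0.33 (adjusted p = 0.0503 over all probe sets), and in both the groups did not overlap. PROS1, which encodes protein S, read 7.54, 7.80 and 7.79 against 7.80, 8.10 and 7.96, a difference of -0.24 (adjusted p = 0.288), with the nearest arrays of the groups 7.80 each to 2 decimals. GAS6 and PROS1 were singled out after their values were seen, as were HGF, WNT5A, VEGFA, CSF1 and IRS1 below.

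**Figure D2:**
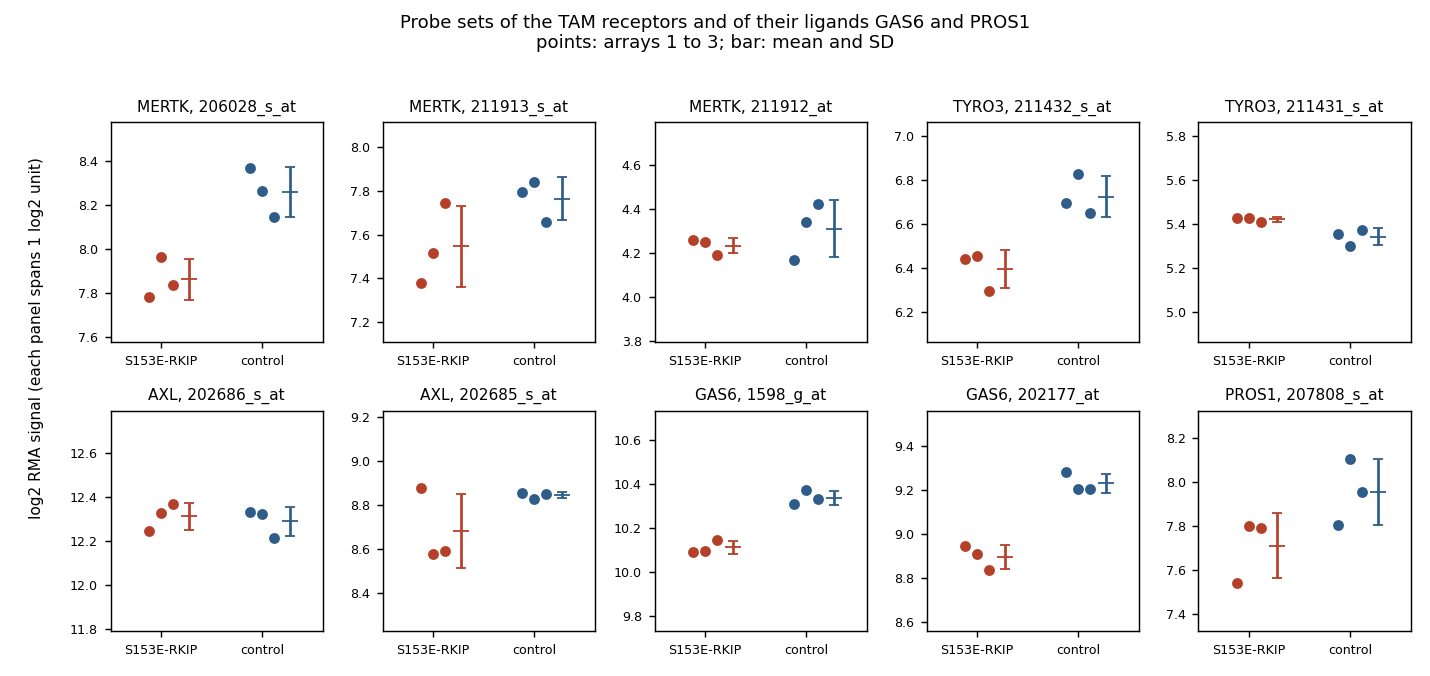
Log2 RMA signal (y axis, 1 log2 unit per panel) for every probe set of MERTK, TYRO3, AXL, GAS6 and PROS1, with 3 S153E-RKIP arrays at the left and 3 control arrays at the right of each panel and bars for mean and SD. The brightest MERTK probe set (difference -0.40) and both GAS6 probe sets part the groups, whereas the 2 TYRO3 probe sets part them in opposite directions.

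MET, the receptor of hepatocyte growth factor, had log2 signals of 11.47, 11.54 and 11.64 in S153E-RKIP and 11.76, 11.68 and 11.76 in control. The S153E-RKIP arrays all lay below the control arrays, and the difference of -0.18 (95% confidence interval -0.33 to -0.037, SE 0.064) did not pass the test (adjusted p = 0.223). All 4 probe sets of MET had a difference below 0, from -0.18 to -0.049. MST1R, encoding the related receptor RON, had a difference of 0.058 (adjusted p = 0.761) at a mean signal of 6.60. HGF, the ligand of MET, had one of 0.13 (adjusted p = 0.501).

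ROR1 and ROR2 are receptors with a Wnt-binding domain, and ROR1 is known from embryonic tissue and some cancers. ROR1 had log2 signals of 8.23, 8.34 and 8.47 in S153E-RKIP, against 8.62, 8.53 and 8.57 in control. The groups did not overlap in any of its 3 probe sets, whose differences were -0.22, -0.16 and -0.12. The first of these (95% confidence interval -0.39 to -0.059, SE 0.072) did not pass the test (adjusted p = 0.197). ROR2 had signals of 3.81, 3.72 and 3.91 in S153E-RKIP and 3.70, 3.66 and 3.53 in control. Its difference of 0.18 (adjusted p = 0.283) came from a signal at the low end of the other-tissue genes. WNT5A, a ligand of both, had a difference of -0.15 (adjusted p = 0.429) at a mean signal of 5.17.

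RYK and PTK7, whose kinase domains are known to be inactive, also take part in Wnt signalling. RYK read 9.39, 9.31 and 9.38 in S153E-RKIP and 9.39, 9.38 and 9.37 in control, with a difference of -0.023 (95% confidence interval -0.15 to 0.10), the narrowest interval of the set. PTK7 read 7.90, 7.90 and 7.85 in S153E-RKIP and 8.05, 7.94 and 7.83 in control, with overlapping groups and a difference of -0.054 (adjusted p = 0.735). MUSK, the receptor that organises the synapse on muscle, had a difference of -0.0045 at a mean signal of 4.47.

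The insulin and IGF1 receptors drive growth and glucose uptake through the docking proteins IRS1 and IRS2. IGF1R had log2 signals of 8.35, 8.72 and 8.63 in S153E-RKIP and 8.79, 8.85 and 8.56 in control. The groups overlapped, both were widely spread (SD 0.19 in S153E-RKIP and 0.15 in control), and the difference was -0.17 (95% confidence interval -0.43 to 0.081, SE 0.11, adjusted p = 0.482). Of its 5 probe sets 4 had a difference below 0, and the second (-0.20) parted the groups. INSR read 7.41, 7.61 and 7.73 in S153E-RKIP and 7.66, 7.62 and 7.66 in control, a difference of -0.062 (adjusted p = 0.755), and its 5 probe sets ran from -0.17 to 0.12. INSRR, known as a sensor of alkaline pH, had a difference of 0.019.

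FGFR1, a fibroblast growth factor receptor, read 9.01, 9.05 and 9.18 in S153E-RKIP and 9.19, 9.05 and 9.01 in control. Its difference was -0.0036 (95% confidence interval -0.17 to 0.16, SE 0.072, adjusted p = 0.987), and its 7 probe sets ran from -0.075 to 0.16. FGFR2, FGFR3 and FGFR4 had differences of 0.14, 0.079 and 0.042, with adjusted p from 0.432 to 0.805, and their mean signals of 6.06, 4.17 and 7.12 lay in the range of the other-tissue genes. The 11 probe sets of FGFR2 ran from -0.20 to 0.20. FGFR2 was read by a probe set whose name marks possible pairing with other transcripts, and without such probe sets its difference was -0.13.

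**Figure D3:**
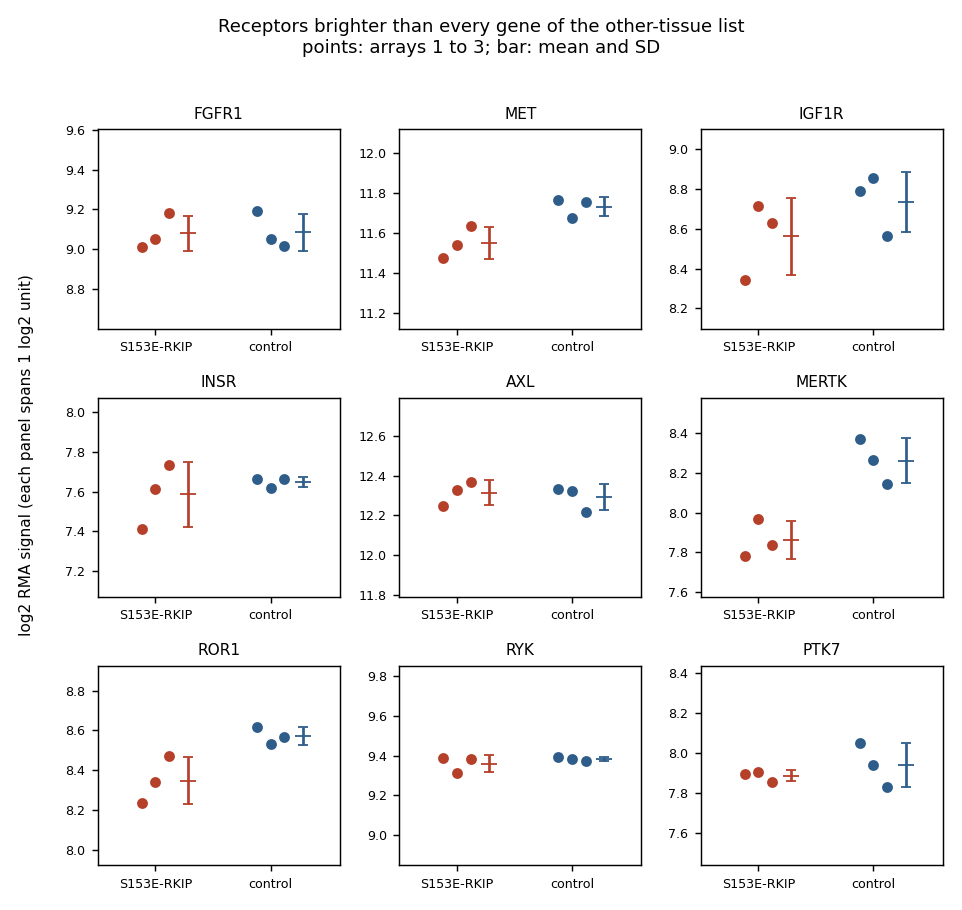
Log2 RMA signal (y axis, 1 log2 unit per panel) of the 9 receptors whose mean signal exceeded 7.43, the brightest of the other-tissue genes, with S153E-RKIP arrays left of control arrays and bars for mean and SD. MERTK, MET and ROR1 part the groups; S153E-RKIP replicate 1, the leftmost point of each panel, is the lowest of 6 arrays in 6 panels.

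The other receptors had signals within the range of the other-tissue genes, and none was called. PDGFRB, a receptor of pericytes and fibroblasts, read 5.85, 5.94 and 5.92 in S153E-RKIP and 6.0002, 6.07 and 6.10 in control, without overlap (difference -0.15, adjusted p = 0.260). PDGFRA had a difference of 0.096, KIT, the stem cell factor receptor, one of -0.12, and CSF1R, the receptor of macrophage colony stimulating factor, one of -0.0071. FLT3, a receptor of blood progenitors, had a difference of 0.14 with a wide interval of -0.12 to 0.41. The adjusted p of these 4 ran from 0.464 to 0.982.

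Among the receptors of blood vessels, TIE1 read 5.19, 4.88 and 4.92 in S153E-RKIP and 4.71, 4.87 and 4.70 in control. The groups did not overlap, and the difference of 0.24 (SE 0.094, adjusted p = 0.283) was the farthest above 0 in the set. S153E-RKIP replicate 1 stands highest, and without it the difference was 0.14. FLT1, KDR and FLT4, the VEGF receptors, had differences of 0.068, -0.12 and 0.018, and TEK, the angiopoietin receptor, had 0.0013. Beside TIE1, 7 of 8 endothelial markers had a difference above 0. So did 66.1% of all genes with signals up to 7.43 and 21 of the 25 other-tissue genes. None of the 8 markers was called, against 1.90% of all genes. The summed linear signal of the 8 ran from 1458 to 1467 on S153E-RKIP arrays and from 1384 to 1447 on control arrays. ROBO4 (mean log2 signal 9.46) and ESAM (8.75) made up 77.2% to 81.2% of that sum on each array and lay above the range of the other-tissue genes. The other 6 markers lay within it, and CDH5, which defines endothelium, was lowest at 3.85. The part of such markers in the value of TIE1 was not tested.

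NTRK2 and NTRK3, the receptors of BDNF and neurotrophin 3, had differences of 0.091 and 0.050, and RET, the receptor of the GDNF family, 0.18 (adjusted p = 0.435). RET was read by a probe set whose name marks possible pairing with other transcripts, and without such probe sets its difference was 0.016. All 6 NTRK2 probe sets had differences above 0, from 8.8e-05 to 0.15, at mean signals of 4.52 or less. ALK and LTK had differences of -0.0025 and -0.087. ROS1 read 3.75, 3.85 and 3.95 in S153E-RKIP and 3.85 on each control array, the same value at 6 significant digits on 4 arrays. In 14 of the 34 receptors at least 2 arrays shared a value at 6 significant digits. DDR2, a collagen receptor, had a difference of -0.056 (adjusted p = 0.743). The 4 probe sets annotated to DDR1 and MIR4640 together had differences from -0.11 to -0.070, and the brightest read 8.39, 8.87 and 8.80 in S153E-RKIP and 8.63, 8.83 and 8.82 in control, with overlap.

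The sign of the difference went with signal, in the receptors as in all genes. Of the 9 receptors above 7.43 on the log2 scale 8 had a difference below 0, or 88.9%, and AXL was the exception. Of the 8004 genes above that mark 64.7% did. Of the 25 dimmer receptors 15 had a difference above 0, or 60.0%, as did 66.1% of the 11771 dimmer genes. Among the other-tissue genes 21 of 25 lay above 0, with a median of 0.060. The division at 7.43 was made after the values were seen, and that mark is the signal of SFTPC alone. Each receptor was counted here by its brightest probe set only. All probe sets of MET, MERTK and ROR1 lay below 0, but 5 of 7 of FGFR1 and 3 of 5 of INSR lay above it. IGF1R, RYK and PTK7 had 1 probe set each above 0. In 19 of the 34 receptors the probe sets differed in sign. S153E-RKIP replicate 1 was the lowest of the 6 arrays in 6 of the 9 brighter receptors, and in 25.0% of all genes above the mark, where replicate 2 was lowest more often (35.4%). It also stood apart from replicates 2 and 3 on the second principal component of all genes (21.6% of the variance). Without it the median difference over the 34 receptors was 0.026.

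The rest of the pathway was read from lists of ligands, co-receptors and binding proteins, adaptors, and restraints. Of 40 measured ligands 2 fell and none rose, or 5% called against 1.90% of all genes. At an unadjusted p under 0.05 there were 7 lower and 4 higher, 27.5% in all, against 15.7% of all genes. PTN, encoding pleiotrophin, a heparin-binding growth factor reported as a ligand of ALK, read 6.79, 6.98 and 6.83 in S153E-RKIP, against 7.63, 7.59 and 7.59 in control. The groups were far apart, and the difference was -0.73 (SE 0.065, limma adjusted p = 0.00127), 1.66-fold lower. The mean signal of 7.23 lay within the range of the other-tissue genes, below SFTPC alone. The 3 brighter probe sets of PTN, all with names that mark possible pairing with other transcripts, were each called lower (-0.73, -0.41 and -0.58). The fourth, with no such mark and a mean signal of 5.37, had a difference of -0.12 (adjusted p = 0.471 over all probe sets), and the call was lost when only it was used.

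BDNF, the neurotrophin that binds NTRK2, read 8.09, 7.75 and 8.04 in S153E-RKIP and 8.52, 8.44 and 8.44 in control. The difference was -0.51 (SE 0.092, adjusted p = 0.0330), 1.42-fold lower, and its second probe set had -0.43 (adjusted p = 0.145 over all probe sets). The call was lost when S153E-RKIP replicate 3 was left out (adjusted p = 0.0772), and likewise for control replicate 1, 2 or 3 (adjusted p = 0.171, 0.119 and 0.130). The median difference of the 40 ligands was -0.019. VEGFA and CSF1, with differences of 0.29 and 0.36, varied too much between arrays of a group to pass (adjusted p = 0.496 and 0.485). In both genes replicate 1 was the lowest and replicate 2 the highest array of either group.

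Of 26 co-receptors and binding proteins none passed the test, against 1.90% of all genes called. An unadjusted p under 0.05 was reached by 7, 4 lower and 3 higher, or 26.9% against 15.7% of all genes, and the median difference was 0.0072. IGFBP1, which binds IGF1, had the smallest p, with 10.83, 10.91 and 10.81 in S153E-RKIP, against 11.09, 11.28 and 11.17 in control (difference -0.33, SE 0.067, adjusted p = 0.0506). Over 18 other processing choices the difference of IGFBP1 ran from -0.38 to -0.14, and it was called in 4. FLRT2, known to interact with FGF receptors, was named after its values were seen. Its brightest probe set had a difference of -0.43 (adjusted p = 0.0531), while its 2 dimmer ones, tested by themselves, were called lower (-0.49 and -0.52, adjusted p = 0.0298 and 0.00816 over all probe sets).

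Of 29 adaptors and proximal signalling proteins 1 fell and none rose, or 3.45% called against 1.90% of all genes. At an unadjusted p under 0.05 there were 4 lower and 1 higher, 17.2% against 15.7% of all genes, and the median difference was -0.057. The called gene was IRS2, the docking protein of the insulin and IGF1 receptors, with 10.02, 10.01 and 9.98 in S153E-RKIP and 10.43, 10.34 and 10.25 in control. The groups did not overlap, and the difference was -0.33 (SE 0.062, adjusted p = 0.0388), 1.26-fold lower. IRS2 kept its direction and lost its call without any 1 of the 6 arrays, with the adjusted p between 0.0778 and 0.159. IRS1, its relative, had a difference of 0.0064 (adjusted p = 0.968).

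Of 30 restraints 1 fell and none rose, or 3.33% called against 1.90% of all genes. At an unadjusted p under 0.05 there were 6 lower and 3 higher, 30% against 15.7% of all genes. The groups did not overlap in 14 of the 30, 9 below and 5 above, or 46.7% against 20.1% of all genes, and the median difference was -0.085. Lack of overlap went with signal, in 2146 of 8004 genes above 7.43 and 1822 of the 11771 dimmer genes. The median signal of the restraints was 7.98. How much of the 46.7% goes with signal was not tested. The called gene was SOCS2, a suppressor of cytokine and growth hormone signalling, with 10.66, 10.39 and 10.48 in S153E-RKIP and 11.11, 11.10 and 11.06 in control. The difference was -0.58 (SE 0.076, adjusted p = 0.00850), 1.49-fold lower, and its second probe set was called as well (-0.65, adjusted p = 0.00814 over all probe sets). The call was lost without control replicate 1, 2 or 3 (adjusted p = 0.0690, 0.0510 and 0.0507). LRIG1, a restraint of several receptors, had a difference of 0.37 with S153E-RKIP above control on every array (adjusted p = 0.177), and was named after its value was seen.

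**Figure D4:**
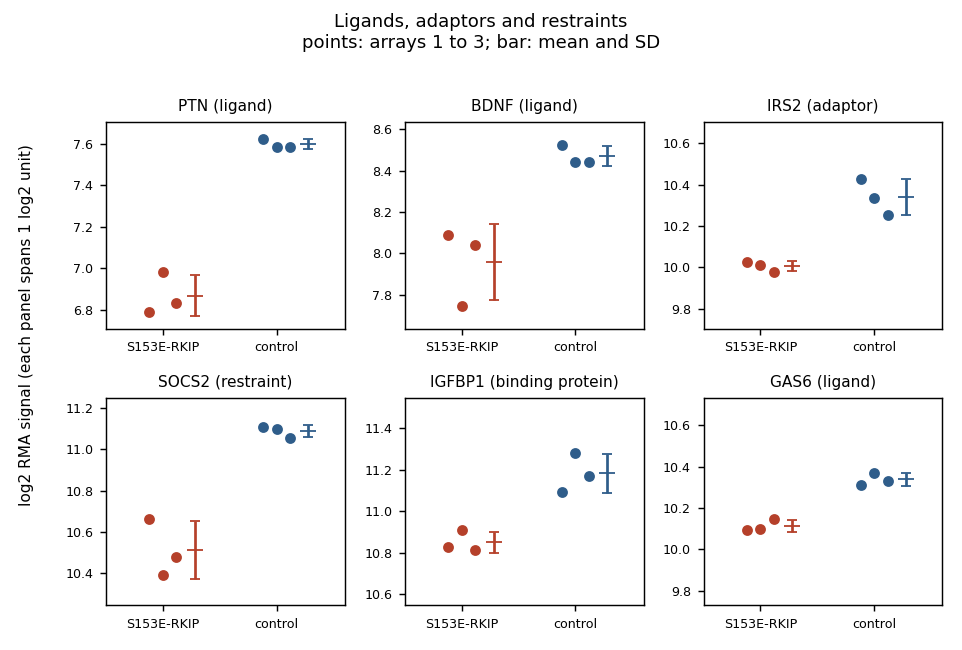
Log2 RMA signal (y axis, 1 log2 unit per panel) of PTN, BDNF, IRS2, SOCS2, IGFBP1 and GAS6, with 3 S153E-RKIP arrays left of 3 control arrays and bars for mean and SD. The groups do not overlap in any panel; PTN, BDNF, IRS2 and SOCS2 were called lower, and IGFBP1 and GAS6 did not pass the test.

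The processing choices moved the adjusted p of MERTK between 0.0171 and 0.191 and that of TYRO3 between 0.0281 and 0.272. In every alternative the difference of each stayed below 0, from -0.46 to -0.23 in MERTK and from -0.36 to -0.12 in TYRO3. MERTK was called in 5 of 18 alternatives and TYRO3 in 2 of 17. Both were called with genes above 6 on at least 3 arrays only, and with equal array medians.

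**Figure D5:**
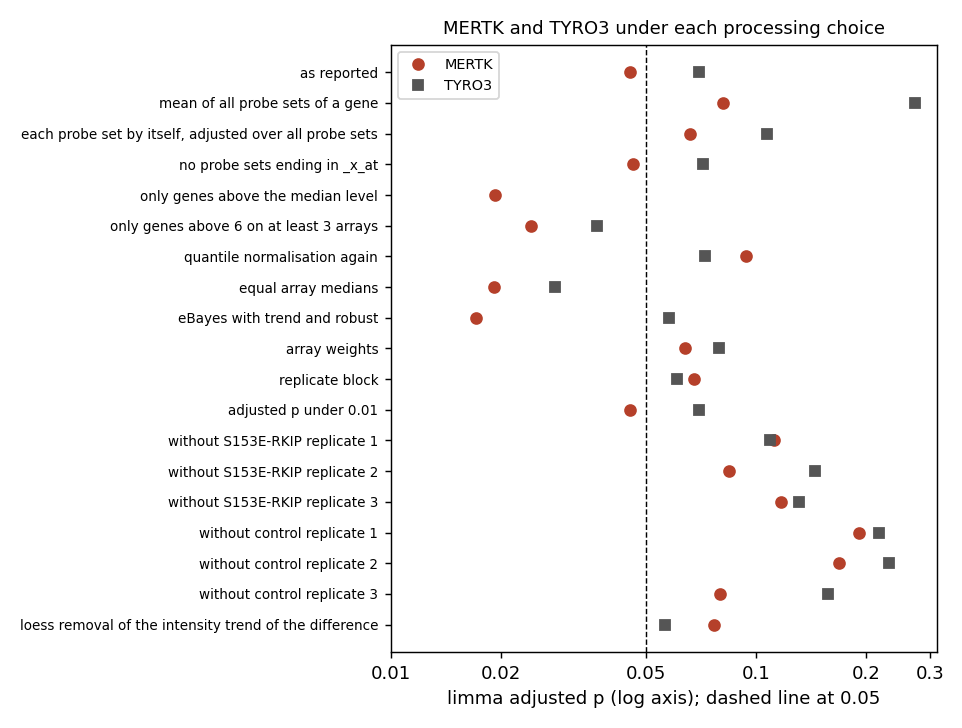
Limma adjusted p (x axis, log scale) of MERTK and TYRO3 as reported and under each other processing choice, with a dashed line at 0.05; at the stricter threshold of 0.01 the p itself is as reported. MERTK lies left of the line as reported (0.0453) and right of it in each of the 6 cases with 1 array left out; TYRO3 is absent where its signal did not exceed the median level.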

How the data were processed

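Total RNA (1 µg per labelling) was measured on Affymetrix HG-U133 Plus 2.0 arrays, the type that the series' design text names. The labels name a whole-transcript labelling kit, which is not the usual one for this 3′ array, and the sources used here do not settle which target was hybridised. The deposited values are log2 signals, 1 per probe set and array, and the submitters' processing notes name RMA as the authors' method. That method subtracts background, normalises by quantiles and summarises probes, which narrows large fold changes and leaves no measure of signal over background. The sources used here do not state its version. Of 54675 probe sets, 62 control probe sets were left out, 41091 had 1 gene symbol in the platform annotation, 1801 had several and 11721 none. Gene identifiers matched RefSeq for 41037, and 0 symbols changed. Array medians ran from 5.60 to 5.67, and no pair of arrays held identical values.

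The fit was limma 3.58.1 under R 4.3.3 (lmFit, eBayes without trend, two-sided), over all 19775 genes, each by its brightest probe set with 1 symbol, with no filter on dim genes. A gene was called at a Benjamini-Hochberg adjusted p under 0.05. Precision is limited by the 3 arrays a group, and the median SE of a difference was 0.072. Where the text says "over all probe sets", each probe set was tested by itself. The fit was tested on simulated data.

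The receptors and lists were chosen with earlier results of these data known. The rule for named genes took PEBP1, HMGA2, all receptors and, of each other pathway list, up to 4 called genes with the smallest p, or the 1 with the smallest p where none was called. The lists of cell type markers gave no called gene: 0 of 8 for endothelium, 0 of 7 for blood cells, 0 of 8 for fibroblasts and pericytes, 0 of 6 for neurons and glia, 0 of 7 for mesenchymal-like breast lines and 0 of 9 for luminal epithelium. With 1.90% of all genes called, lists this short would seldom hold a called gene. Figures were drawn with matplotlib 3.10.9.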

Additional observations from a re-analysis of the deposited data

How the results depend on the processing

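Alternatives covered the choice of probe sets (their mean, each one singly, none ending in _x_at), 2 filters on dim genes, scaling (quantile normalisation again, equal array medians), the model (trend with robust estimation, a replicate block, array weights), a threshold of 0.01, and each array left out in turn. Loess removal of the intensity trend was chosen after seeing the data. Of 571 values of single receptors under these, 556 kept their side of the threshold. The other 15 were 13 lost calls of MERTK and 2 gained calls of TYRO3, and no call changed direction. The number of receptors called lower was 1 and became 2 with genes above 6 on at least 3 arrays and with equal array medians. It was 0 with the mean of probe sets, each probe set singly, quantile normalisation again, array weights, the replicate block, the threshold of 0.01, loess removal, and each array left out. No receptor was called higher in any alternative. The median over receptors was -0.058 with genes above the median level and -0.023 with genes above 6, where fewer receptors were tested, -0.038 with equal array medians and -0.037 with loess removal. With 1 array left out it ran from -0.020 to 0.026.

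Over all genes, called genes were 136 higher and 240 lower, and 116 and 355 with equal array medians. They were 60 and 87 at 0.01, and with 1 array left out 53 to 132 and 71 to 171. With genes above the median level 374 were lower, and with trend and robust estimation 417. Called ligands gained 1 higher gene under both filters on dim genes, quantile normalisation again and trend, and 1 lower one was left without _x_at probe sets, at 0.01, after loess removal, and in 4 of the 6 cases with 1 array left out (range 1 to 2). Co-receptors called lower were 2 with the mean of probe sets and under both filters, 3 with equal medians, 4 with trend, and 1 with array weights or the replicate block. Adaptors called lower were 0 with each probe set singly, quantile normalisation again, array weights, the replicate block, 0.01, loess removal and each array left out. Restraints called lower were 2 with the mean of probe sets and with genes above the median level, and 0 to 1 with 1 array left out, where 0 to 1 were higher. Where a cause is not given, it was not tested.

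The labels do not say whether same-numbered arrays of the groups were handled together. Their deviations correlated at 0.13, 0.26 and -0.044, and 4 of 6 arrays correlated best with their own number. The replicate block gave 332 called genes in place of 376. Signal over background was not measured, which limits the dim receptors most.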

Other observations

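Of 7 blood cell markers none was called, against 1.90% of all genes, and 6 had a difference above 0, with a median of 0.15. In 4 of the 7, or 57.1%, S153E-RKIP lay above control without overlap. That held for 1310 of the 11771 genes with signals up to 7.43. At an unadjusted limma p under 0.05 there were 3 markers, all higher, or 42.9% against 15.7% of all genes. Of all genes with signals up to 7.43, where all 7 lie, 66.1% had a difference above 0, as did 21 of the 25 other-tissue genes. Their summed linear signal ran from 298 to 307 on S153E-RKIP arrays and from 258 to 274 on control arrays. PTPRC, which defines blood cells, had a mean log2 signal of 3.93, at the low end of the other-tissue genes. Of the 7 markers of mesenchymal breast lines 6 had a difference below 0 and in 6 the groups did not overlap, 5 of them with S153E-RKIP below control, while CD44 lay above it (0.13, limma adjusted p = 0.293). All 7 have signals above 7.43, where 64.7% of all genes had a difference below 0 and 20.2% had S153E-RKIP below control without overlap. CAV1, named after its values were seen, is the scaffold of caveolae and read 12.58, 12.64 and 12.63 in S153E-RKIP, against 12.91, 12.89 and 12.82 in control, with a difference of -0.26 (adjusted p = 0.0685).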
